A study of Saccharomyces cerevisiae with 15 samples.

Results

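The strain C7-143 is labelled as the final evolved strain of a series of Saccharomyces cerevisiae strains that make β-carotene, and it was compared with C0, the β-carotene strain from which the labels start that series. The comparison took the 3 libraries of C7-143 and the 3 libraries of C0, 6 of 15 samples, and all 5980 genes of the deposited expression table. C7-143 and C0 carry the same label: S288C background, his3Δ1, leu2Δ0, met15Δ0 and ura3Δ0, with overexpressed spCas9-NG (a Cas9 nuclease of relaxed PAM), HMG1 (a yeast HMG-CoA reductase), CrtE, CrtYB and Crt I, the enzymes that lead from isoprenoid diphosphates to β-carotene. The series also holds C3-06 and C5-63, labelled as evolved strains along the way with the same genotype and proteins, and BY47419, the starting strain with the nuclease alone, 3 libraries each. Per the labels, each strain grew in rich medium (20 g/L glucose, 30 °C) and was harvested in exponential growth near an OD600 of 3. The promoters of the overexpressed genes, the changes selected in C7-143 and whether its libraries came from separate cultures are not stated in the labels. The p-values below therefore measure the spread between these libraries, which may be technical.

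Yeast given ample glucose ferments it to ethanol, makes ribosomes at a high rate and represses respiration, gluconeogenesis and the use of other sugars. When glucose runs out, Msn2, Msn4 and related factors turn on stress and reserve carbohydrate genes, ribosome synthesis stops and the cells respire the ethanol. β-carotene is drawn from the mevalonate pathway, whose farnesyl diphosphate is also the precursor of ergosterol, the main sterol of the yeast membrane. The gene groups below follow these processes.

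The C7-143 libraries held 20079039, 19562224 and 18452713 reads on genes, and the C0 libraries held 16144808, 18266650 and 18140970. Levels are given as CPM (counts scaled to library size) after TMM scaling, and a gene was called at an edgeR adjusted p below 0.05. The genes of the labels were read first. HMG1 had 517, 645 and 649 CPM in the C7-143 libraries, against 2192, 2014 and 2047 CPM in the C0 libraries. It was lower in C7-143 (log2 fold change -1.79 ± 0.13 SE, edgeR adjusted p = 1.85e-09), and both strains lay above BY47419, which averaged 79.8 CPM. MET17, the gene deleted by met15Δ0, had 0 reads in C7-143 and 0 in C0, which allows up to 3 reads over each strain's libraries. URA3 had 0 reads in C7-143 and 1 in C0. LEU2 had 269.6, 238 and 244 CPM in the C7-143 libraries, against 176, 153 and 189 CPM in the C0 libraries, so reads of a gene labelled as deleted were present in both strains. C3-06, with the same label, had 0 LEU2 reads, which allows up to 3 over its libraries, while C5-63 averaged 249 CPM and BY47419 224 CPM, and the source of the reads was not tested. HIS3 reads check nothing, since his3Δ1 removes only an internal stretch of the gene. GAL80, the repressor of the galactose genes, had 0 reads in C7-143 and 0 in C0 but averaged 159.9 CPM in BY47419, and its loss is in no label.

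Of 5814 genes tested, 4999 (86.0%) were called between C7-143 and C0. C7-143 was higher for 2481 genes (42.7%) and lower for 2518 (43.3%). At a change of at least 2-fold, 1388 genes (23.9%) were higher and 1152 (19.8%) lower in C7-143. A change of at least 8-fold was reached by 232 genes upward and 160 downward. The C7-143 and C0 libraries did not overlap for 5078 genes (87.3%). The median log2 fold change of all genes tested was -0.02. With scaling by library totals alone it was 0.12, with 2684 genes higher and 2177 lower, so this balance depends on the scaling. Since most genes were called, a gene group is described below by its counts at both thresholds and its median, beside the TMM shares of all genes. Some genes are in several of these groups, so the counts of different groups are not independent. A number in brackets after a gene's name, or given as the change of a gene or the median of a list, is a log2 fold change, C7-143 over C0.

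**Figure D1:**
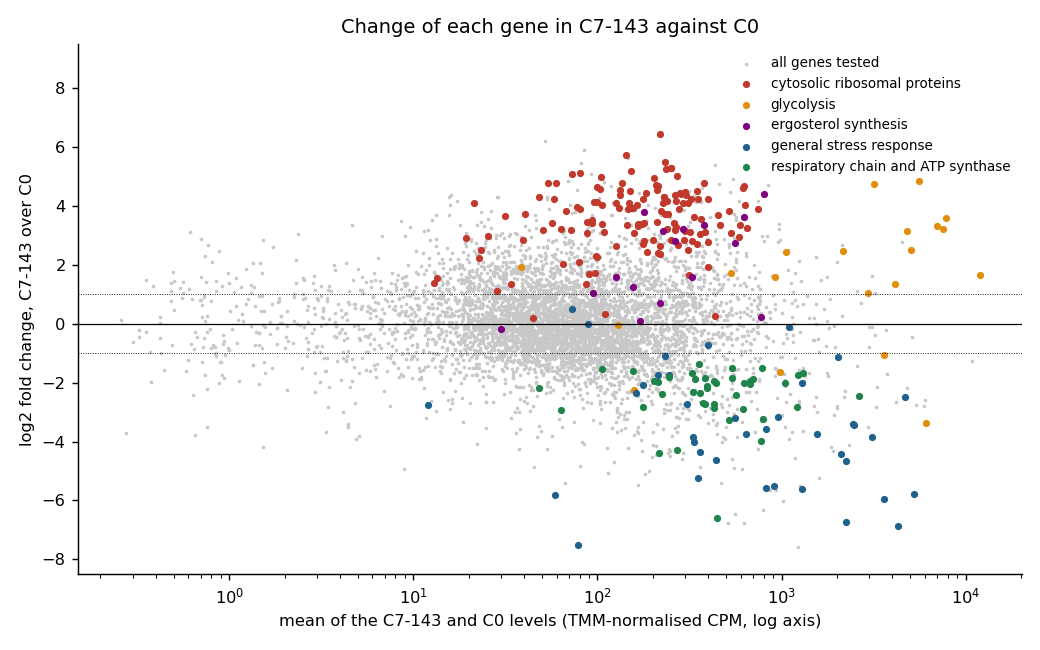
Each point is a gene, placed by the mean of its C7-143 and C0 levels (TMM-normalised CPM, log axis) and by its log2 fold change, C7-143 over C0; coloured points are 5 gene lists and dotted lines mark 2-fold. The 138 ribosomal protein genes lie above 0 and all 43 respiratory chain genes lie below it.

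The promoters of a few genes that hold a motif counted below are shown here. They are examples and do not stand for their groups, in which other genes lack the motif. Each runs from 250 bases before to 50 bases after the start of the coding region in the R64 reference genome. The sequence is given 5′ to 3′ on the strand of the gene. Capitals in the DDR2 and HSP12 promoters mark AGGGG, or CCCCT on the other strand, the element bound by Msn2 and Msn4. In the UTP21 promoter they mark GCGATGAG and AAAATTTT, the elements common before ribosome biogenesis genes, in ERG11 they mark TCGTTNAG, an element of sterol-regulated genes, and in GAL7 the Gal4 element, CGG and CCG around a fixed spacer.
DDR2, chrXV:231706-232005, minus strand: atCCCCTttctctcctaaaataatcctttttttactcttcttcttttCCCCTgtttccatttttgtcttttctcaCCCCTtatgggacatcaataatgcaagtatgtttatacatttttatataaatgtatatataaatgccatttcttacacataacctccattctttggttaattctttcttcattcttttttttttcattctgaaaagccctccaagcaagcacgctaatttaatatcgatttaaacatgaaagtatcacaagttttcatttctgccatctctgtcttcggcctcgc
HSP12, chrVI:107006-107305, plus strand: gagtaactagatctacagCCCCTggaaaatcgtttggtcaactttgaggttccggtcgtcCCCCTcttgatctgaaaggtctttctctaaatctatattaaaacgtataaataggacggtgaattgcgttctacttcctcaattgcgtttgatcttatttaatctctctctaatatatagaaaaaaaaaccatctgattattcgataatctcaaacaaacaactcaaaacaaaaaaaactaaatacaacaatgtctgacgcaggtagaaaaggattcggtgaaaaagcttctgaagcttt
UTP21, chrXII:937184-937483, minus strand: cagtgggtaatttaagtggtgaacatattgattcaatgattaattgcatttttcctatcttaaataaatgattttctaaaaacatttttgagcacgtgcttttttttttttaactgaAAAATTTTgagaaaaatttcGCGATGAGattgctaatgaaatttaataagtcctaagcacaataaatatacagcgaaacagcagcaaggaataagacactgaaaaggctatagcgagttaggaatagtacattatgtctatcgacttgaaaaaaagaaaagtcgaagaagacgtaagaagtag
ERG11, chrVIII:121634-121933, minus strand: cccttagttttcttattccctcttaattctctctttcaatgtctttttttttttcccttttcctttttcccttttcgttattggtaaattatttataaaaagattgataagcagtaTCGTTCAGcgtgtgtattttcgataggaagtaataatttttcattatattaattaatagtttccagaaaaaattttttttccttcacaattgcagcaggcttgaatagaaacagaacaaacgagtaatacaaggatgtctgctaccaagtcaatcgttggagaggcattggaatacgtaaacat
GAL7, chrII:275478-275777, minus strand: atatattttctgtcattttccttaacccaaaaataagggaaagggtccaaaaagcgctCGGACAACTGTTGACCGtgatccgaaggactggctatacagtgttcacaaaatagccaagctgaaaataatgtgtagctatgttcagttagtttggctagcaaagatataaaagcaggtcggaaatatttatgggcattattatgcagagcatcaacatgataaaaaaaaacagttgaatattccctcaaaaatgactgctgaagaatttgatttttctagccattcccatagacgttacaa

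Each motif was searched on both strands of the same 300 bases of every gene tested. AGGGG was present in 21.9% of all promoters. It was present in 34.8% of the promoters of genes at least 2-fold lower in C7-143, in 14.1% of those at least 2-fold higher and in 55.3% of the 38 general stress genes. Other gene lists did not all follow this. AGGGG stood in 35.0% of glycolysis and 35.3% of fatty acid synthesis promoters, lists with mostly higher genes. It stood in 48.8% of respiratory chain promoters but in 13.3% of peroxisome promoters, both lists with mostly lower genes. The median log2 fold change was 0.09 for the 4542 genes without the motif, -0.33 for the 1098 with 1 copy, -0.81 for the 145 with 2 copies and -1.32 for the 29 with 3 or more. The share at least 2-fold lower in C7-143 was 16.5% without a copy and 62.1% with 3 or more. GCGATGAG stood in 4.04% of all promoters and in 45 of the 83 of ribosome biogenesis factors. AAAATTTT stood in 9.12% of all promoters and in 16.6% of those of genes at least 2-fold higher in C7-143. It stood in 64 of the 83 of ribosome biogenesis factors. Of the 138 promoters of cytosolic ribosomal proteins, 0.725% held GCGATGAG and 7.25% held AAAATTTT, below the shares of all promoters. CCAAT, bound by the Hap complex that activates respiratory genes, was present in 43.6% of all promoters, 44.4% of genes at least 2-fold higher, 45.2% of genes at least 2-fold lower and 35 of the 43 respiratory chain genes. TCGTTNAG was present in 2.73% of all promoters and in 5 of 16 ergosterol genes, and the Gal4 element in 1.34% and in 3 of 9 galactose genes. A match describes the letters of these windows, not binding.

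Ribosomal protein genes, the cell cycle and cell wall synthesis led the rises, and stationary phase, stress and alternative carbon genes led the falls. RPS22A, a protein of the small ribosomal subunit, had 447, 474 and 368 CPM in the C7-143 libraries, against 6.06, 3.65 and 5.30 CPM in the C0 libraries. Every C7-143 library lay far above every C0 library (log2 fold change 6.43 ± 0.21 SE, edgeR adjusted p = 1.95e-13; YJL190C; chrX:74910-75302, minus strand). PCL1, a cyclin of early G1 that partners the kinase Pho85, had 113, 99.1 and 96.9 CPM in the C7-143 libraries, against 2.16, 1.31 and 0.798 CPM in the C0 libraries (log2 fold change 6.21 ± 0.43 SE, edgeR adjusted p = 2.23e-09). CDC21, the thymidylate synthase that DNA replication needs, had 145, 173 and 161 CPM in the C7-143 libraries, against 4.04, 3.29 and 3.54 CPM in the C0 libraries (log2 fold change 5.46 ± 0.16 SE, edgeR adjusted p = 4.65e-14). In both genes the lowest C7-143 library was far above the highest C0 library. The cell wall enzymes UTR2, which joins glucan to chitin, and SCW10, a glucanase-like wall protein, reached 849 ± 56.0 and 2254 ± 138 CPM in C7-143, against 20.3 ± 1.32 and 61.7 ± 4.35 CPM in C0 (SD, n = 3 each, here and below). Their log2 fold changes were 5.39 ± 0.26 SE and 5.19 ± 0.20 SE. TIR3, a wall mannoprotein of cold and anaerobic growth, rose by 5.62 ± 0.27 SE. The other 6 of the 12 largest rises were the ribosomal protein genes RPS9B (5.72), RPL17B (5.51), RPL43A (5.30), RPS1B (5.28), RPL27A (5.25) and RPS18B (5.20), all on the log2 scale.

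The largest fall was that of SPG4 (YMR107W; chrXIII:483014-483361, plus strand), a gene needed for survival at high temperature in stationary phase. SPG4 had 9.06, 9.92 and 18.9 CPM in the C7-143 libraries, against 2554, 2274 and 2473 CPM in the C0 libraries (log2 fold change -7.59 ± 0.32 SE, edgeR adjusted p = 3.65e-12). HSP30, a plasma membrane stress protein that restrains the proton pump, had 63.0, 67.5 and 84.9 CPM in the C7-143 libraries, against 8986, 8794 and 7590.1 CPM in the C0 libraries (log2 fold change -6.88 ± 0.34 SE, edgeR adjusted p = 1.30e-11). The lowest C0 library lay far above the highest C7-143 library for both genes. HXT6, a high-affinity glucose transporter nearly identical to HXT7 so that its reads may be shared with it, had 10.1, 11.9 and 11.8 CPM in the C7-143 libraries, against 1254, 1325 and 1122 CPM in the C0 libraries (log2 fold change -6.78 ± 0.28 SE, edgeR adjusted p = 2.47e-12). PCK1, the key enzyme of gluconeogenesis, had 17.9, 19.2 and 21.1 CPM in the C7-143 libraries, against 1758, 1212 and 1719 CPM in the C0 libraries (log2 fold change -6.33 ± 0.34 SE, edgeR adjusted p = 6.19e-11). These transporter and gluconeogenesis genes are classical targets of glucose repression. The stress genes DDR2 (-6.73 ± 0.27 SE) and HSP12 (-5.94 ± 0.23 SE), the respiratory growth gene RGI2 (-7.50 ± 0.43 SE), the genes of mitochondrial proteins COX26 (-6.59 ± 0.26 SE), FMP45 (-6.45) and FMP16 (-6.01), the stationary phase gene SPG1 (-6.78) and the osmotic and desiccation stress gene SIP18 (-5.82) completed the 12 largest falls on the log2 scale. For SPG4, HSP12 and RPS22A, BY47419 averaged 3578, 11939 and 4.80 CPM, near the levels of C0 or higher. Neither strain was tested against BY47419.

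**Figure D2:**
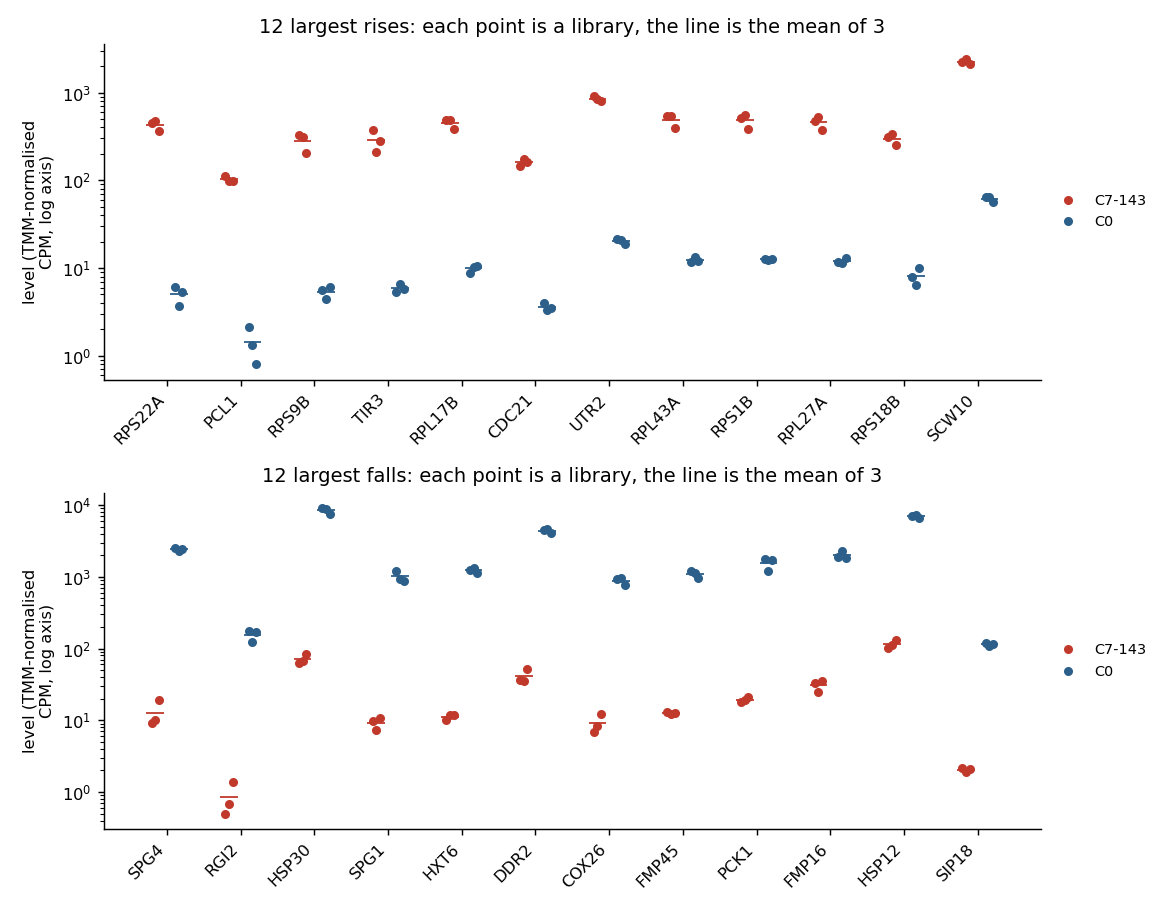
The y axis is the level in TMM-normalised CPM on a log scale; red points are the 3 C7-143 libraries and blue points the 3 C0 libraries of each gene, with a line at each mean. The libraries of C7-143 and C0 are apart for all 24 genes, chosen for that by rule.

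All strains were harvested near the same optical density per the labels, but growth rate and the glucose left in each culture are not stated there. Strain and growth state at harvest therefore cannot be told apart. In bulk RNA, a lower level in every cell and fewer cells with the transcript cannot be told apart either, and levels are relative to all reads on genes, not per cell.

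All 138 genes of cytosolic ribosomal proteins were higher in C7-143, 135 of them by at least 2-fold, with a median log2 fold change of 3.67. Of all genes tested, 42.7% were higher, and 23.9% were higher by at least 2-fold. The ribosomal protein genes together took 5.59%, 6.02% and 4.80% of reads in the C7-143 libraries, against 0.470%, 0.471% and 0.512% in the C0 libraries. Every C7-143 library was above every C0 library, and replicate 3 was the lowest of C7-143. RPS4A had 609.7 ± 37.1 CPM in C7-143 and 32.7 ± 2.53 CPM in C0, and RPL23A had 431 ± 49.1 CPM in C7-143 and 25.2 ± 0.965 CPM in C0, with log2 fold changes of 4.22 ± 0.11 SE and 4.10 ± 0.09 SE. The smallest changes were those of RPL15B (0.19), RPL4A (0.26) and RPL9B (0.33). RPL15B and RPL4A lost their call without C7-143 replicate 2 (edgeR, adjusted p = 0.114 and 0.0533), RPL15B without C0 replicate 1 (adjusted p = 0.0761) and RPL4A without C0 replicate 3 (adjusted p = 0.0674). RPL15B also lost it in a fit of only the strains compared (adjusted p = 0.0605), and at a threshold of 0.01 neither gene was called (edgeR, adjusted p = 0.0182 for RPL15B and 0.0114 for RPL4A). Many yeast ribosomal proteins are encoded by a pair of near-identical genes, A and B, between which the authors' counting may have split reads. In 32 of 59 such pairs the log2 fold changes of both copies differed by at least 1, and in 13 by at least 2. A had the larger value in 17 of the 32 and B in 15. The A copy RPS22A changed by 6.43 and RPS22B by 1.35, so that RPS22A held 89.7% ± 1.93 of the pair's FPKM (reads per length and depth, as deposited) in C7-143 and 20.7% ± 3.84 in C0. RPS9 went the other way, with 5.72 for RPS9B and 1.55 for RPS9A, and RPS9A held 6.89% ± 1.92 of the pair in C7-143 and 55.8% ± 1.94 in C0. RPL9A changed by 4.38 and held 67.2% ± 3.32 of its pair in C7-143, against 11.1% ± 0.851 in C0.

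The factors that build ribosomes moved the same way less uniformly. Of ribosome biogenesis factors, 68 of 83 were higher (55 by at least 2-fold) and 6 lower (0 by at least 2-fold), with a median of 1.38. UTP21, a component of the small subunit processome, had 49.9, 51.1 and 47.8 CPM in the C7-143 libraries, against 3.23, 3.29 and 3.99 CPM in the C0 libraries (log2 fold change 3.82 ± 0.14 SE, edgeR adjusted p = 3.99e-13). NOP56, a core protein of box C/D RNA-guided methylation, had 465 ± 41.9 CPM in C7-143 and 48.9 ± 3.02 CPM in C0, and GAR1, its counterpart in pseudouridylation, 142 ± 13.7 CPM in C7-143 and 10.1 ± 1.40 CPM in C0. Both differed by more than the spread of their libraries, by 3.25 ± 0.11 SE and 3.80 ± 0.14 SE on the log2 scale. NSA1 (-0.77), NOP16 (-0.60) and MPP10 (-0.45) fell. RNA polymerases I and III transcribe ribosomal and transfer RNA, and of their subunits and factors 21 of 28 were higher (15 by at least 2-fold) and 5 lower (1 by at least 2-fold), with a median of 1.07. The polymerase I subunits RPA43 (4.32) and RPA12 (3.71) rose, while the polymerase I initiation factors RRN3 (-0.96) and RRN10 (-1.22) fell. Of the translation factors, 34 of 37 were higher (26 by at least 2-fold) and 1 lower (0 by at least 2-fold), with a median of 1.45. Elongation factor genes TEF4 (4.15) and EFB1 (3.63) and the helicase gene TIF1 (4.13) were among those that rose. TIF1 may share reads with its copy TIF2. Mitochondrial ribosomal proteins went the other way, with 4 of 76 higher (0 by at least 2-fold) and 58 lower (14 by at least 2-fold) and a median of -0.52. MRPS12 had 72.1 ± 3.81 CPM in C7-143 and 265 ± 23.2 CPM in C0, while MRPL32 (0.90) was among the 4 that rose.

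Most glycolytic genes rose in C7-143 and a few isoenzymes fell. Of the 20 genes of glycolysis, 15 were at least 2-fold higher in C7-143 and 4 at least 2-fold lower, with a median log2 fold change of 1.82. The list held 12.6%, 10.8% and 11.9% of reads in the C7-143 libraries, against 3.31%, 3.60% and 3.33% in the C0 libraries. FBA1, the aldolase, had 16262, 13209 and 13785 CPM in the C7-143 libraries, against 1152, 1254 and 1213 CPM in the C0 libraries (log2 fold change 3.58 ± 0.19 SE, edgeR adjusted p = 2.29e-11). ENO2, the fermentative enolase, had 12601, 9574 and 9943 CPM in the C7-143 libraries, against 375, 361 and 391 CPM in the C0 libraries (log2 fold change 4.83 ± 0.22 SE, edgeR adjusted p = 4.25e-12). The C7-143 libraries of both genes stood far above those of C0, and in ENO2 replicate 1 was the highest of C7-143. By the rise in CPM, 8 genes led the whole table: FBA1, TDH3 (1.66), GPM1 (3.21), CDC19 (3.32), ENO2, TPI1 (3.14), PGK1 (2.51) and ADH1 (2.79), 7 glycolytic genes and the alcohol dehydrogenase that ends fermentation. Reads of the TDH and ENO copies may be shared among them. HXK1, the hexokinase repressed by glucose, fell instead, with 1024, 857 and 1361 CPM in the C7-143 libraries, against 11011, 12278 and 10053 CPM in the C0 libraries (log2 fold change -3.36 ± 0.27 SE, edgeR adjusted p = 6.05e-09). PYK2, a minor pyruvate kinase (-2.25), and EMI2, a relative of glucokinase (-1.63), fell too.

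Of the glucose transporters and sensors, 3 of 20 were higher (1 by at least 2-fold) and 13 lower (9 by at least 2-fold), with a median of -0.83. HXT3, a low-affinity transporter used at high glucose, rose, with 1136 ± 97.0 CPM in C7-143 and 284 ± 26.1 CPM in C0 (2.00 ± 0.12 SE). HXT5, the transporter of slow growth, had 54.0 ± 4.72 CPM in C7-143 and 2467 ± 194 CPM in C0 (-5.51 ± 0.19 SE). MTH1, a repressor of transporter genes that acts when glucose is absent, had 136 ± 38.2 CPM in C7-143 and 1002 ± 76.3 CPM in C0, and the glucose sensor gene SNF3 changed by -2.09. Ethanol and acetate metabolism split, with 9 of 24 higher (5 by at least 2-fold) and 13 lower (10 by at least 2-fold). The fermentation genes ADH1, at 7899.8 ± 1064 CPM in C7-143 and 1139.7 ± 47.1 CPM in C0, and PDC1, pyruvate decarboxylase, at 4695 ± 715 CPM in C7-143 and 1534 ± 71.3 CPM in C0, rose. ACS1, the acetyl-CoA synthetase of respiring cells (-4.33), ACH1, which moves CoA between acetate and succinate (-4.57), ALD4, the main mitochondrial aldehyde dehydrogenase (-3.65), and ALD3 (-3.84) fell.

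Genes that yeast uses on carbon sources besides glucose were mostly lower. In gluconeogenesis and the glyoxylate cycle 20 of 23 genes were lower, each by at least 2-fold, and 3 were higher by less than 2-fold, with a median of -3.32. Of all genes, 43.3% were lower. CAT8, the activator of gluconeogenesis genes, had 23.7, 23.8 and 23.8 CPM in the C7-143 libraries, against 341, 262 and 320.2 CPM in the C0 libraries (log2 fold change -3.70 ± 0.12 SE, edgeR adjusted p = 1.30e-13). CAT2, carnitine acetyltransferase, changed by -4.92 and the cytosolic malate dehydrogenase gene MDH2 by -1.66. All 43 genes of the respiratory chain and ATP synthase were at least 2-fold lower in C7-143, with a median of -2.11 and a range of -6.59 to -1.37. They took 0.759%, 0.845% and 0.857% of reads in the C7-143 libraries, against 3.57%, 3.53% and 3.52% in the C0 libraries. No C7-143 library came near a C0 library in this sum. QCR7, a subunit of complex III, had 147 ± 7.71 CPM in C7-143 and 1083 ± 44.3 CPM in C0, COX6 of complex IV had 120.0 ± 7.02 CPM in C7-143 and 605 ± 32.2 CPM in C0 and CYB2, the lactate dehydrogenase of the intermembrane space, 19.8 ± 2.38 CPM in C7-143 and 411 ± 75.6 CPM in C0. Of the 18 TCA cycle genes, 15 were lower, with a median of -1.72. SDH1, a succinate dehydrogenase subunit, had 210.2 ± 17.3 CPM in C7-143 and 1790.2 ± 137 CPM in C0 and MDH1, mitochondrial malate dehydrogenase, 405 ± 19.6 CPM in C7-143 and 3423 ± 127 CPM in C0.

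**Figure D3:**
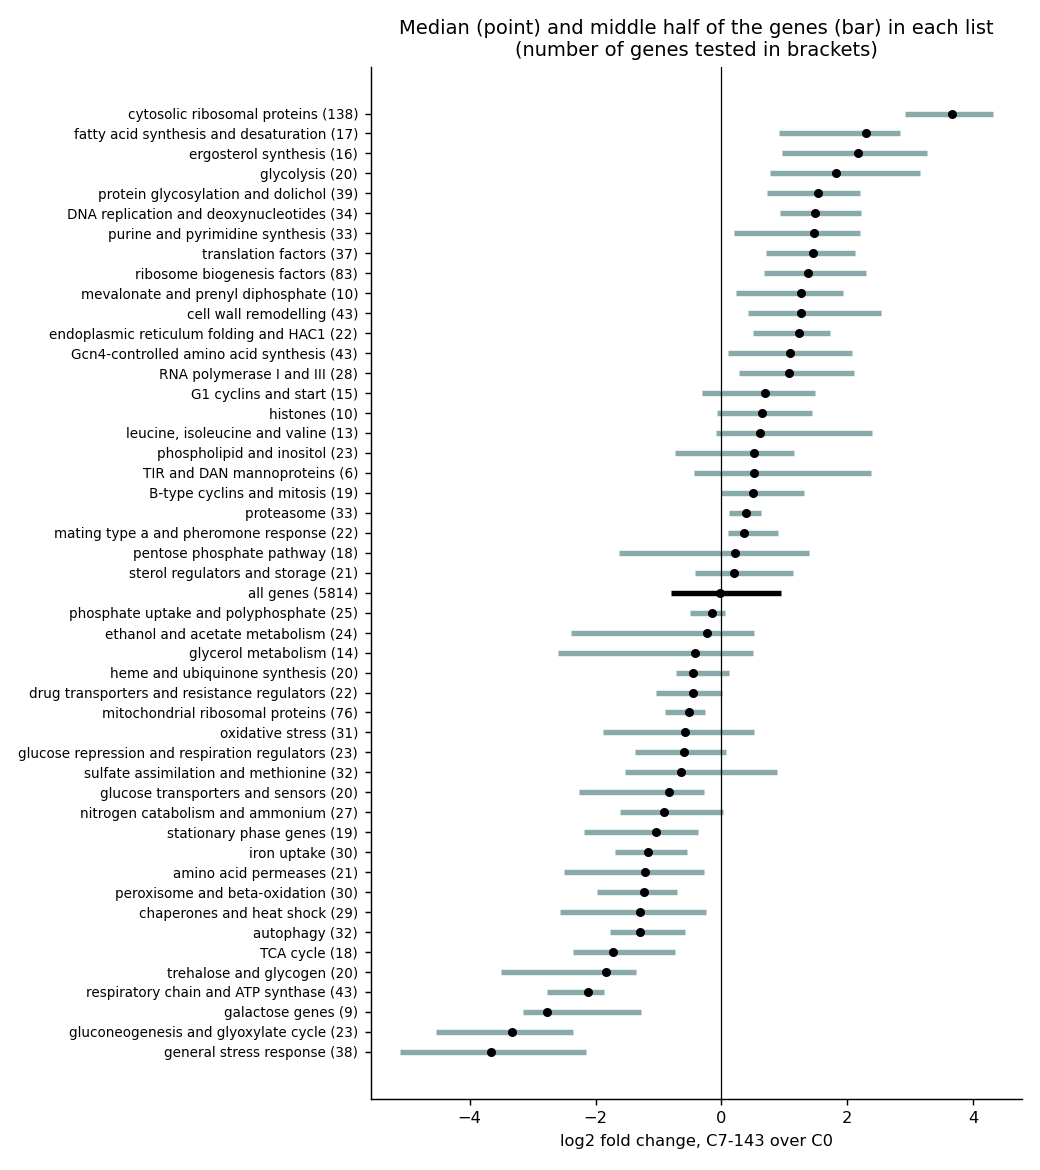
Gene lists are ordered by their median log2 fold change, C7-143 over C0; points are medians over the genes tested, bars span the middle 50% of genes, and the black bar is all genes. Ribosomal proteins stand at the top with a median of 3.67 and general stress genes at the bottom with -3.66.

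Among regulators of glucose repression and respiration, 5 of 23 were higher (3 by at least 2-fold) and 13 lower (8 by at least 2-fold). The activators ADR1 (-1.86), HAP2 (-1.62), HAP5 (-1.31) and RDS2 (-1.58) fell, and the co-repressor gene TUP1 (1.84) and the repressor gene NRG2 (1.85) rose. Of the heme and ubiquinone synthesis genes, 4 of 20 were higher (2 by at least 2-fold) and 11 lower (3 by at least 2-fold). HEM13, the oxygen-requiring coproporphyrinogen oxidase that is induced in hypoxia, had 772, 410.1 and 575 CPM in the C7-143 libraries, against 53.0, 51.8 and 57.1 CPM in the C0 libraries (log2 fold change 3.44 ± 0.23 SE, edgeR adjusted p = 7.87e-10). It stood apart from HEM1, the entry enzyme of heme synthesis, which fell by 1.48 on the log2 scale. Of the peroxisome and β-oxidation genes, 2 of 30 were higher (2 by at least 2-fold) and 27 lower (18 by at least 2-fold), with a median of -1.22. FOX2 (-2.73) and FAA2 (-2.87), which act on fatty acids in the peroxisome, fell. The higher members were ANT1 (1.56), the peroxisomal ATP carrier, and PXL1 (1.42), a paxillin-like protein of polarised growth that is listed here although it is no peroxisomal gene.

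General stress genes had the lowest median of all the lists. Of 38 genes tested, 35 were lower, 34 of them by at least 2-fold, and 1 was higher, with a median log2 fold change of -3.66. Their share was 0.852%, 0.778% and 0.945% of reads in the C7-143 libraries, against 8.21%, 8.50% and 7.91% in the C0 libraries. HSP12, a membrane-bound stress protein, had 102, 113 and 130.3 CPM in the C7-143 libraries, against 7149, 7372 and 6621 CPM in the C0 libraries (log2 fold change -5.94 ± 0.23 SE, edgeR adjusted p = 5.35e-13). DDR2, induced by DNA damage and many other stresses, had 36.6, 35.6 and 52.1 CPM in the C7-143 libraries, against 4544, 4573 and 4114 CPM in the C0 libraries. CTT1, the cytosolic catalase, had 90.0 ± 6.60 CPM in C7-143 and 1195 ± 17.6 CPM in C0, and SSA3, a stress-induced Hsp70, had 52.6 ± 2.21 CPM in C7-143 and 2541 ± 232 CPM in C0. MSN2, the factor that drives these genes, was the gene that rose, by 0.49, while its partner MSN4 fell by 1.09 on the log2 scale. Of stationary phase genes, 3 of 19 were higher (0 by at least 2-fold) and 16 lower (10 by at least 2-fold), with a median of -1.04. RIM15, the kinase that sets up quiescence, rose by 0.49, and GIS1, a transcription factor under its control, changed by -2.06.

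Of the genes for the reserve carbohydrates trehalose and glycogen, 1 of 20 were higher (1 by at least 2-fold) and 18 lower (16 by at least 2-fold), with a median of -1.84. GLC3, the glycogen branching enzyme, had 256 ± 30.5 CPM in C7-143 and 4411 ± 505 CPM in C0, and GDB1, the debranching enzyme, 169 ± 18.3 CPM in C7-143 and 1918 ± 199 CPM in C0. Both enzymes fell, and PGM1 alone of the list rose, by 1.95. Of the chaperones, 5 of 29 were higher (4 by at least 2-fold) and 21 lower (17 by at least 2-fold), with a median of -1.29. HSP104, the disaggregase, had 2139, 1285 and 1759.7 CPM in the C7-143 libraries, against 10774, 10393 and 9652 CPM in the C0 libraries (log2 fold change -2.57 ± 0.22 SE, edgeR adjusted p = 1.37e-08), and HSP26, a small heat shock protein, had 234, 114 and 215 CPM in the C7-143 libraries, against 10001, 11049.8 and 9692 CPM in the C0 libraries (log2 fold change -5.77 ± 0.34 SE, edgeR adjusted p = 9.63e-11). The ribosome-bound Hsp70 genes SSB1 and SSB2, which may share reads, rose instead, by 4.71 and 4.18. CPR7, an Hsp90 partner, rose by 2.29. Oxidative stress genes were mixed, with 10 of 31 higher (6 by at least 2-fold) and 17 lower (13 by at least 2-fold): SOD2, the mitochondrial superoxide dismutase (-1.96), and TSA2, an inducible peroxiredoxin (-4.27), fell, and TRX1, a thioredoxin (1.93), and GSH2, glutathione synthetase (1.59), rose. Of the autophagy genes, 4 of 32 were higher (0 by at least 2-fold) and 26 lower (20 by at least 2-fold), and the median was -1.29, with ATG32, the receptor for mitochondria, at -2.65 and ATG36, the receptor for peroxisomes, at -2.89. Of the proteasome subunits and their activator, 24 of 33 were higher (3 by at least 2-fold) and 5 lower (1 by at least 2-fold), with a median of 0.39, and RPN4, that activating transcription factor, had 139 ± 22.6 CPM in C7-143 and 712 ± 44.6 CPM in C0 (-2.36 ± 0.11 SE).

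Genes from acetyl-CoA to farnesyl diphosphate and on to ergosterol were higher in C7-143 at most steps. Of 10 mevalonate and prenyl diphosphate genes, 7 were higher, 6 of them by at least 2-fold, and HMG1, labelled as overexpressed in both strains, was lower. ERG10, acetoacetyl-CoA thiolase, had 423 ± 31.7 CPM in C7-143 and 109.9 ± 7.68 CPM in C0, and ERG13, HMG-CoA synthase, had 599 ± 48.5 CPM in C7-143 and 142 ± 8.23 CPM in C0. ERG20, farnesyl diphosphate synthase at the branch to carotenoids and sterols, had 1144, 1079 and 1001 CPM in the C7-143 libraries, against 199.8, 214 and 202 CPM in the C0 libraries (log2 fold change 2.39 ± 0.09 SE, edgeR adjusted p = 5.64e-13). The groups did not overlap, as for 87.3% of all genes tested, and ERG20 changed most among these genes. ERG12, mevalonate kinase (1.37), MVD1, mevalonate diphosphate decarboxylase (1.89), IDI1, the isomerase (0.61), and BTS1, the yeast geranylgeranyl diphosphate synthase (1.17), also rose. HMG2, the other HMG-CoA reductase, at 0.10 ± 0.08 SE (edgeR, adjusted p = 0.267), and ERG8, phosphomevalonate kinase, at -0.13 ± 0.07 SE (edgeR, adjusted p = 0.0721), were not called. With scaling by library totals alone HMG2 was called higher (0.24, edgeR, adjusted p = 0.0031), and without C0 replicate 3 ERG8 was called lower (-0.19, adjusted p = 0.0219).

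Of 16 ergosterol genes, 14 were higher, 12 of them by at least 2-fold, with a median of 2.17 and a share of 0.899%, 0.875% and 0.820% of reads in the C7-143 libraries, against 0.184%, 0.189% and 0.194% in the C0 libraries. ERG9, squalene synthase, which draws farnesyl diphosphate into sterols, changed least among the genes called, with 861, 806 and 819 CPM in the C7-143 libraries, against 729.9, 717 and 693 CPM in the C0 libraries (log2 fold change 0.22 ± 0.06 SE, edgeR adjusted p = 0.00521). ERG1, squalene epoxidase, had 974 ± 44.5 CPM in C7-143 and 146 ± 15.6 CPM in C0 (2.74 ± 0.15 SE). ERG7, lanosterol synthase, was not called at 0.10 ± 0.07 SE (edgeR, adjusted p = 0.182). ERG11, the azole-sensitive demethylase whose promoter is shown above, had 1268, 1169 and 1022 CPM in the C7-143 libraries, against 83.9, 90.9 and 104 CPM in the C0 libraries (log2 fold change 3.63 ± 0.17 SE, edgeR adjusted p = 7.26e-12). ERG25, the C-4 methyl oxidase (YGR060W; chrVII:610564-611493, plus strand), had 1749, 1486 and 1363 CPM in the C7-143 libraries, against 77.1, 66.2 and 73.9 CPM in the C0 libraries (log2 fold change 4.40 ± 0.19 SE, edgeR adjusted p = 2.37e-12). No C0 library of ERG11 or ERG25 came near a C7-143 library. The later genes rose by 3.23 (ERG26), 1.26 (ERG27), 3.36 (ERG6), 3.81 (ERG2), 2.82 (ERG3), 1.05 (ERG5) and 3.14 (ERG4). ERG24, the reductase after ERG11, rose by 1.59, the scaffold ERG28 by 0.70 and the reductase partner NCP1 by 1.60, while ERG29 at -0.17 ± 0.09 SE (edgeR, adjusted p = 0.0825) was not called. Without C0 replicate 2 ERG29 was called lower (-0.22, edgeR, adjusted p = 0.0465), and with library totals alone ERG7 was called higher (0.24, adjusted p = 0.032). Carotenoid genes are not among the genes of the table used here, and no product was measured in these files.

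**Figure D4:**
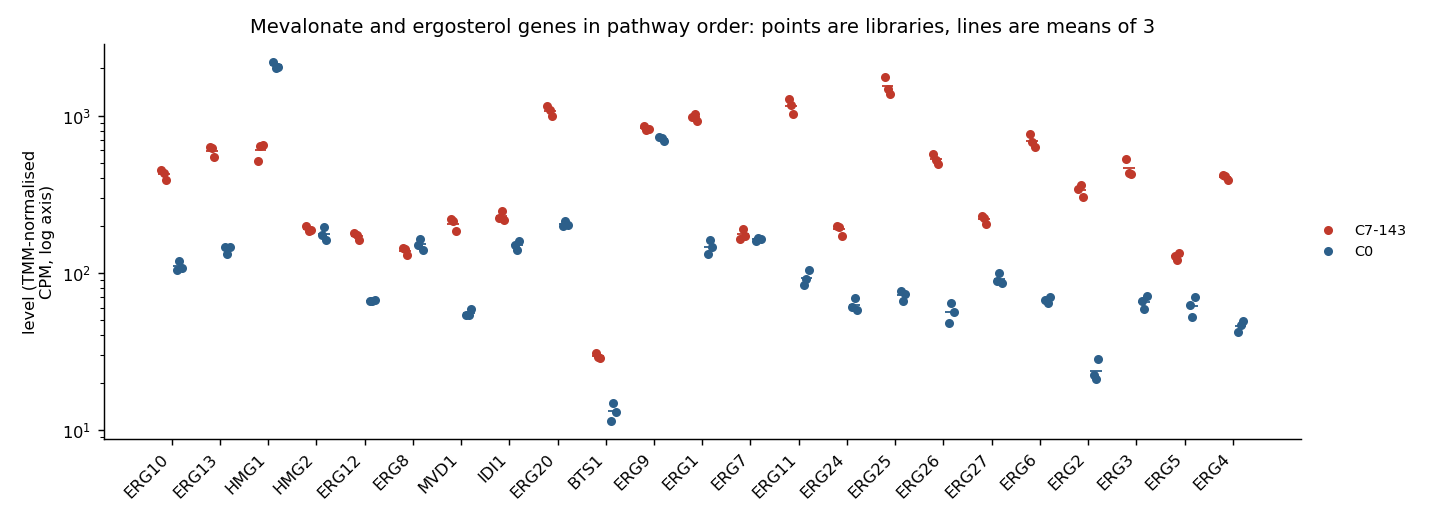
The y axis is the level in TMM-normalised CPM on a log scale, and genes run from acetyl-CoA to ergosterol; red points are the 3 C7-143 libraries, blue points the 3 C0 libraries, lines are means. HMG1, labelled as overexpressed, is the called gene with C7-143 below C0, at 604 CPM in C7-143 and 2084 CPM in C0. HMG2, ERG8 and ERG7 are not called.

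Regulators and storage genes of sterols were mixed, with 11 of 21 higher (6 by at least 2-fold) and 8 lower (3 by at least 2-fold). UPC2, the activator of sterol genes when sterol is low, had 153 ± 16.4 CPM in C7-143 and 23.4 ± 2.39 CPM in C0 (2.71 ± 0.11 SE), while its relative ECM22 changed by 0.20. SUT2 (2.92), the sterol acyltransferase ARE2 (1.90) and the sterol ester hydrolase YEH2 (1.83) rose. SUT1 (-1.42), the lipase TGL4 (-1.32) and DGA1 (-1.27), which makes triacylglycerol, fell. Of the fatty acid synthesis and desaturation genes, 13 of 17 were higher (12 by at least 2-fold) and 3 lower (1 by at least 2-fold), with a median of 2.29. ELO2, a fatty acid elongase, had 183, 204 and 149.6 CPM in the C7-143 libraries, against 4.18, 6.27 and 5.25 CPM in the C0 libraries. Its log2 fold change was 5.09 ± 0.16 SE (edgeR adjusted p = 1.16e-13). FAS2, a subunit of fatty acid synthase, had 1748 ± 116 CPM in C7-143 and 186 ± 4.42 CPM in C0, and FAA4, an acyl-CoA synthetase, 1001 ± 131 CPM in C7-143 and 44.5 ± 2.28 CPM in C0. Of the phospholipid and inositol genes, 13 of 23 were higher (7 by at least 2-fold) and 9 lower (5 by at least 2-fold): CPT1 (2.98) and EPT1 (3.25), which finish phosphatidylcholine and phosphatidylethanolamine from imported head groups, rose, and PAH1, the phosphatidate phosphatase (-2.31), and OPI1, the repressor of this pathway (-1.23), fell.

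Galactose genes were lower in C7-143 than in C0, while GAL1 and GAL7 averaged above BY47419. Of 9 genes tested, 8 were at least 2-fold lower, and the remaining gene is GAL80, without reads in either strain. GAL1, galactokinase, had 1492, 1581 and 1379 CPM in the C7-143 libraries, against 11148, 10625 and 9352 CPM in the C0 libraries (log2 fold change -2.81 ± 0.15 SE, edgeR adjusted p = 4.09e-11), and BY47419 averaged 26.1 CPM. GAL7, the transferase whose promoter is shown above, had 1777, 1639 and 1819 CPM in the C7-143 libraries, against 8559, 7501 and 7419.7 CPM in the C0 libraries (log2 fold change -2.17 ± 0.13 SE, edgeR adjusted p = 1.16e-10), and BY47419 averaged 14.4 CPM. C7-143 thus lay below C0 and above BY47419 for these genes. GAL10, the epimerase, had 6291 ± 209 CPM in C7-143 and 15266 ± 1350.2 CPM in C0 (-1.28 ± 0.14 SE), and GAL2, the galactose transporter, 1369 ± 92.8 CPM in C7-143 and 9341 ± 1196 CPM in C0 (-2.77 ± 0.18 SE). The whole list took 1.20% ± 0.0423 of reads in C7-143 and 4.73% ± 0.280 in C0. Reads of GAL1 and its relative GAL3 (-3.16) may be shared.

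A set of 25 gene pairs with related products, listed after the values were seen, was described by the share of the pair's FPKM held by the gene named first. In 14 pairs the first gene was at least 2-fold higher and the second at least 2-fold lower in C7-143, in 3 both were at least 2-fold higher, in 2 both at least 2-fold lower, and in 0 the first fell and the second rose by that much. The order within each pair was part of that listing, so the counts of 14 and 0 do not describe a one-way pattern. HXK2, the hexokinase of growth on glucose, held 64.6%, 66.4% and 56.3% in the C7-143 libraries, against 2.91%, 2.36% and 3.52% in the C0 libraries beside HXK1. GND1, phosphogluconate dehydrogenase, held 98.4% ± 0.210 in C7-143 and 22.5% ± 2.07 in C0 beside GND2. The transketolase TKL1 held 98.0% ± 0.287 in C7-143 and 22.7% ± 4.64 in C0 beside TKL2, and the transaldolase TAL1 97.6% ± 0.246 in C7-143 and 25.5% ± 0.753 in C0 beside NQM1. In each of these the share of C0 was far from that of C7-143 relative to the spread. Of the pentose phosphate genes as a whole, 8 of 18 were higher (7 by at least 2-fold) and 8 lower (6 by at least 2-fold). At the call threshold these shares, 44.4% each way, were near the 42.7% higher and 43.3% lower of all genes. The lower members were led by GND2 (-5.59), NQM1 (-5.52) and TKL2 (-4.64), all of them also in the general stress list. SSA2, the constitutive Hsp70, held 66.5% ± 4.98 in C7-143 and 13.8% ± 1.47 in C0 beside SSA1, and HTA2 74.7% ± 3.12 in C7-143 and 15.5% ± 1.01 in C0 beside the other histone gene HTA1. Of the cytochrome c pair, CYC7 held 86.2% ± 2.60 in C7-143 and 88.9% ± 1.12 in C0 beside CYC1, a difference near the spread of the libraries. HMG1 held 75.7% ± 3.24 in C7-143 and 92.1% ± 0.917 in C0 beside HMG2. It is labelled as overexpressed, and its reads do not tell a native from an added copy.

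**Figure D5:**
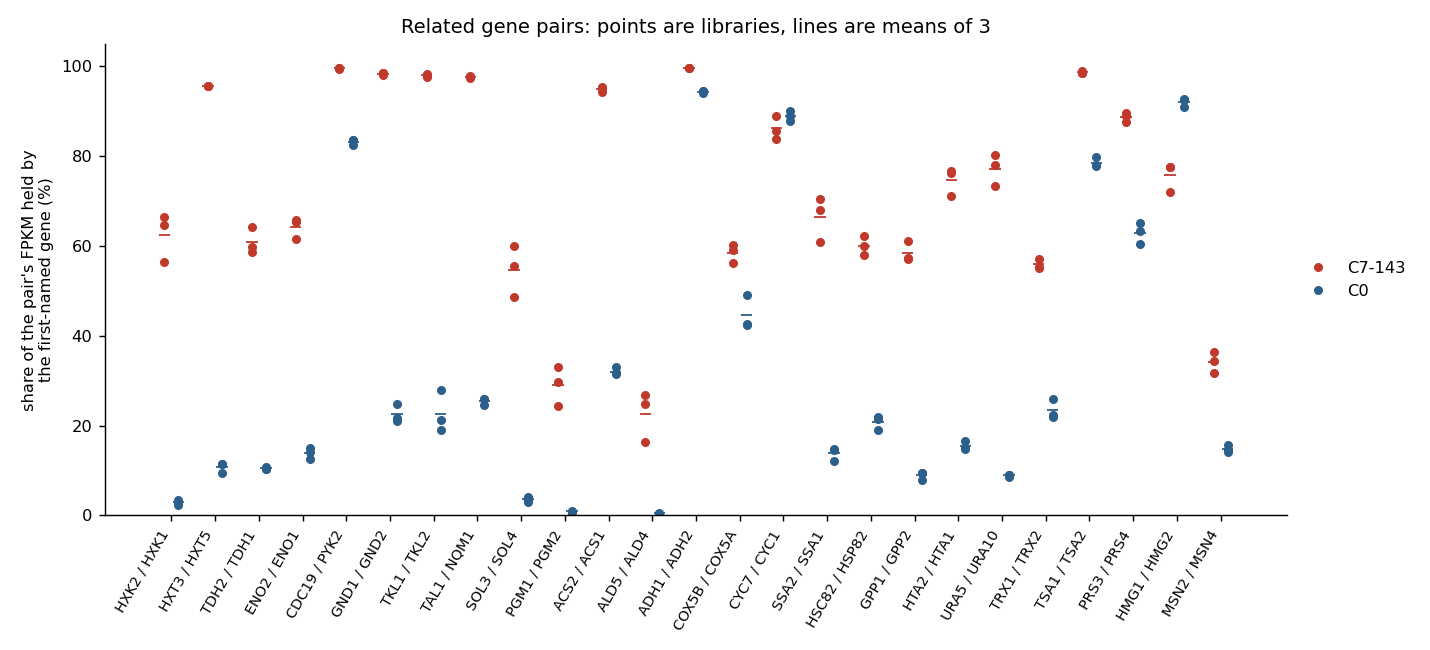
For each of 25 pairs, the y axis gives the percentage of the pair's FPKM held by the first-named gene; red points are the 3 C7-143 libraries, blue points the 3 C0 libraries, lines are means. HXK2 holds 62.5% of its pair in C7-143 and 2.93% in C0, while CYC7 is close in both.

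Most replication genes and several cyclins were higher in C7-143. Of 34 genes of DNA replication and deoxynucleotide synthesis, 32 were higher, 23 of them by at least 2-fold, 0 were lower, and the median was 1.49. The list includes TOS6 (3.74), a cell wall protein gene under G1 control and no replication gene. RFA1, the large subunit of the single-strand binding protein, had 293 ± 3.52 CPM in C7-143 and 44.2 ± 3.36 CPM in C0, and CDC45, a helicase factor, 34.6 ± 3.03 CPM in C7-143 and 4.11 ± 0.825 CPM in C0. Of the G1 genes, 9 of 15 were higher (5 by at least 2-fold) and 5 lower (0 by at least 2-fold). The G1 cyclin CLN2 had 128, 130.2 and 126 CPM in the C7-143 libraries, against 19.9, 17.1 and 17.3 CPM in the C0 libraries (log2 fold change 2.82 ± 0.13 SE, edgeR adjusted p = 6.38e-12), and CLN1 changed by 3.69. SIC1, the inhibitor of S phase, was lower, with 151 ± 12.2 CPM in C7-143 and 279.5 ± 12.2 CPM in C0. Of the mitotic genes, 13 of 19 were higher (6 by at least 2-fold) and 4 lower (1 by at least 2-fold), with the cyclins CLB1 (1.93) and CLB2 (1.97) higher and CDC15 (-1.13) lower. Of the histone genes, 6 of 10 were higher (3 by at least 2-fold) and 2 lower (1 by at least 2-fold), with HTA2 (2.65) and HTB2 (2.89) higher and HTA1 (-1.36) lower.

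Most genes of protein glycosylation, folding in the endoplasmic reticulum and the cell wall were higher too. Of the protein glycosylation genes, 36 of 39 were higher (28 by at least 2-fold) and 2 lower (0 by at least 2-fold), with a median of 1.53. PMI40 and PSA1, which supply GDP-mannose, had 456 ± 13.6 CPM in C7-143 and 37.3 ± 1.82 CPM in C0 for PMI40 and 865 ± 66.4 CPM in C7-143 and 81.8 ± 1.13 CPM in C0 for PSA1. The mannosyltransferase PMT2 had 792, 799 and 739 CPM in the C7-143 libraries, against 118, 115 and 121 CPM in the C0 libraries. Its log2 fold change was 2.72 ± 0.07 SE (edgeR adjusted p = 1.92e-14). Of the endoplasmic reticulum folding and export genes, 18 of 22 were higher (12 by at least 2-fold) and 4 lower (0 by at least 2-fold), with a median of 1.24: PDI1, the disulfide isomerase, had 3236 ± 149.7 CPM in C7-143 and 761 ± 51.2 CPM in C0, while IRE1, the sensor of unfolded proteins, changed by -0.31, a call lost with scaling by library totals alone (-0.17, edgeR, adjusted p = 0.126). Of the cell wall genes, 34 of 43 were higher (22 by at least 2-fold) and 7 lower (2 by at least 2-fold), with a median of 1.27. CCW12, an abundant mannoprotein of growing buds, had 3673 ± 175 CPM in C7-143 and 577 ± 28.1 CPM in C0, and PIR3, a wall protein with internal repeats, had 33.4 ± 1.89 CPM in C7-143 and 1689 ± 173 CPM in C0. Of the TIR and DAN mannoproteins, 3 of 6 were higher (2 by at least 2-fold) and 2 lower (1 by at least 2-fold), with TIR3 and TIR1 (2.85) higher and TIR2 and DAN4 lower.

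Markers of mating type a, 7 genes, summed to 1045 to 1129 CPM in the C7-143 libraries and 750.4 to 780.2 CPM in the C0 libraries. The 4 markers of mating type α summed to 78.3 to 84.1 CPM in C7-143 and 78.7 to 81.4 CPM in C0, and the 5 sporulation markers to 83.3 to 83.7 CPM in C7-143 and 101 to 104 CPM in C0. No marker was at 0, and MF(ALPHA)1, the α pheromone, had 1.62 CPM in C7-143 and 0.904 CPM in C0. Their part in the other results was not tested. Of the genes of mating type a and pheromone response, 14 of 22 were higher (4 by at least 2-fold) and 4 lower (1 by at least 2-fold), with the factor STE12 (2.21) higher and ASG7 (-2.33) lower.

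Most genes of Gcn4-dependent amino acid synthesis and of nucleotide synthesis were higher and most permease and iron uptake genes lower. Of the amino acid synthesis genes under Gcn4, 31 of 43 were higher (23 by at least 2-fold) and 7 lower (5 by at least 2-fold), with a median of 1.09. ASN2, an asparagine synthetase, had 1407 ± 72.4 CPM in C7-143 and 77.7 ± 8.52 CPM in C0, and THR1, homoserine kinase, 299 ± 29.1 CPM in C7-143 and 20.3 ± 2.14 CPM in C0, while LYS20, the entry to lysine synthesis, changed by -2.30. Of the leucine, isoleucine and valine genes, 9 of 13 were higher (6 by at least 2-fold) and 3 lower (1 by at least 2-fold), and the mitochondrial aminotransferase BAT1 (2.88) and its cytosolic counterpart BAT2 (-0.69) moved in opposite directions. Of the purine and pyrimidine synthesis genes, 24 of 33 were higher (18 by at least 2-fold) and 6 lower (1 by at least 2-fold), with a median of 1.47, led by the near-identical IMP dehydrogenase genes IMD2 (4.91) and IMD3 (4.60), which may share reads. Of the amino acid permeases, 4 of 21 were higher (1 by at least 2-fold) and 16 lower (11 by at least 2-fold), and the median was -1.22, with the S-adenosylmethionine permease SAM3 at 54.2 ± 7.63 CPM in C7-143 and 498 ± 54.5 CPM in C0. TAT1, a permease for valine, leucine and aromatic amino acids, rose by 1.36.

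Of the sulfate and methionine genes, 10 of 32 were higher (8 by at least 2-fold) and 19 lower (13 by at least 2-fold). MET6, methionine synthase, had 74.3, 59.8 and 86.1 CPM in the C7-143 libraries, against 709.7, 547 and 639 CPM in the C0 libraries (log2 fold change -3.11 ± 0.15 SE, edgeR adjusted p = 9.93e-12), and SAH1, which removes S-adenosylhomocysteine, had 822, 785 and 732 CPM in the C7-143 libraries, against 93.0, 75.5 and 95.9 CPM in the C0 libraries (log2 fold change 3.15 ± 0.15 SE, edgeR adjusted p = 1.09e-11). The strains did not overlap in either gene, as for 87.3% of all genes tested, and the genes moved in opposite directions. Of the nitrogen catabolism genes, 5 of 27 were higher (0 by at least 2-fold) and 17 lower (13 by at least 2-fold), with the arginase CAR1 at -3.16 and glutamine synthetase GLN1 at 0.84. Of the iron uptake genes, 3 of 30 were higher (1 by at least 2-fold) and 25 lower (16 by at least 2-fold), and the median was -1.16, with the siderophore transporter SIT1 at 14.8 ± 2.52 CPM in C7-143 and 279 ± 76.4 CPM in C0 and the ferroxidase FET3 at 38.4 ± 2.37 CPM in C7-143 and 209 ± 33.6 CPM in C0. Of the phosphate genes, 6 of 25 were higher (3 by at least 2-fold) and 11 lower (1 by at least 2-fold). The share lower, 44.0%, was near the 43.3% of all genes, and the share higher, 24.0%, was below their 42.7%. Of the drug transporters and their regulators, 4 of 22 were higher (3 by at least 2-fold) and 13 lower (6 by at least 2-fold), with the ABC transporters PDR15 (-2.88) and YOR1 (-1.89) lower and the polyamine exporter TPO2 (3.68) higher. Of the glycerol metabolism genes, 5 of 14 were higher (2 by at least 2-fold) and 9 lower (6 by at least 2-fold): GPP1, a glycerol phosphatase, had 524 ± 23.9 CPM in C7-143 and 15.8 ± 2.33 CPM in C0, and GUT1, glycerol kinase, 93.0 ± 3.20 CPM in C7-143 and 551 ± 29.6 CPM in C0.

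Levels particular to C7-143 were sought by testing it against C0, C3-06 and C5-63 in turn. At least 2-fold higher than in each of these strains were 86 genes (1.48% of those tested), and at least 2-fold lower 44 (0.757%). With scaling by library totals alone these counts were 44 higher and 74 lower, so their balance depends on the scaling. Against C5-63 alone, 112 genes (1.93%) were at least 2-fold higher and 57 (0.98%) lower. Of the 86 higher genes, 28 encode ribosomal proteins, and of the 44 lower genes, 13 are in the general stress list and 5 in the stationary phase list. Among all 5814 genes tested, these lists hold 138, 38 and 19 genes in the same order. RPL9A had the largest margin among the higher genes, with log2 fold changes of 4.38 against C0, 2.50 against C3-06 and 1.92 against C5-63. TIR1 followed, with 2.85 against C0, 1.98 against C3-06 and 1.77 against C5-63, and ADO1, adenosine kinase, had 2.87 against C0, 1.64 against C3-06 and 1.61 against C5-63. RPL2A, RPL29 and RPL43A also led. SPG4 had the largest margin among the lower genes, with -7.59 against C0, -3.40 against C3-06 and -2.26 against C5-63. HSP26 had -5.77 against C0, -4.42 against C3-06 and -2.13 against C5-63, and YRO2, a membrane protein of the HSP30 family, -3.90 against C0, -2.85 against C3-06 and -1.88 against C5-63. HSP30, DDR2 and FMP16 came next. Ribosomal proteins took 5.47% of reads in C7-143, 3.67% in C5-63, 2.72% in C3-06 and 0.485% in C0, and general stress genes 0.859% in C7-143, 1.68% in C5-63, 2.98% in C3-06 and 8.21% in C0.

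Genes changed by at least 2-fold were found on every chromosome. The share at least 2-fold higher ran from 20.8% on chromosome VI to 26.6% on chromosome III. The share at least 2-fold lower ran from 17.5% on chromosome III to 23.2% on chromosome VI. Chromosome medians of the log2 fold change lay between -0.13 on chromosome IX and 0.07 on chromosome X. No gene with at least 10 CPM on average in 1 strain had 3 or fewer reads over the libraries of the other. Among runs of 5 neighbouring genes, the highest median was 3.06, reached by overlapping runs on chromosome XII. Of these, the run at chrXII:520543-530387 in R64 held only genes with positive log2 fold changes, from 1.04 to 4.78. The lowest run of 5 neighbouring genes was on chromosome VI (chrVI:17004-30540 in R64): AGP3, an amino acid permease (-2.24), AQY3, an aquaporin homologue (-3.84), DAK2, dihydroxyacetone kinase (-2.66), ZNF1, a zinc cluster factor of respiratory growth (-5.10), and YFL051C (-4.26).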

How the data were processed

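RNA sequencing of 15 samples of 5 strains was deposited as 1 table of genes. The authors deposited a read count and an FPKM value (reads per coding length and depth) per gene and sample. HISAT2 is named, without a version, per the submitters' processing notes. Neither the tool that counted reads, nor whether it used strand, nor the build is given in the sources used here, so overlapping and antisense genes cannot be told apart. Of 5980 identifiers, 5977 are in the R64 annotation and 5972 have the same start and end there. FPKM was used only for shares within pairs of genes.

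The deposited counts were filtered with filterByExpr at a count of 10 and a total of 15 and tested with edgeR 4.0.16 (R 4.3.3), using TMM scaling and a robust quasi-likelihood fit of all 15 samples with strain as the factor. Tests are two-sided, with Benjamini-Hochberg adjustment over 5814 genes. The SE is the log2 fold change divided by the square root of F. In simulated counts for this comparison, 67, 66 and 66 genes were changed 1.5-fold, 2-fold and 4-fold. The fit recovered 86.6%, 98.5% and 98.5% of them, with 6 false calls over 5802 genes. Far fewer genes changed in the simulation than were called in the data. It therefore does not give the error rate of the calls above.

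The members and gene lists were chosen with earlier results of these data known, so lists are described by counts and medians, with no list test. Genes named are those of the labels, the mevalonate and ergosterol lists, the 12 largest rises and falls, up to 5 genes of lowest adjusted p per list and up to 3 moving the other way, the 8 largest rises and falls in CPM and the 6 leading genes apart from the other β-carotene strains. The ribosomal pairs, the isoenzyme pairs, MSN4, ECM22, TOS6 and the genes of the run on chromosome VI were named after their values were seen. Limits for genes at 0 reads cover counting error only. Same-numbered libraries of C7-143 and C0 correlated at -0.0946, -0.129 and -0.0958 in their deviations from the strain means, so the numbers were not taken as pairs. Other settings tried were limma-voom (limma 3.58.1), DESeq2 1.42.0, a block for the replicate number, scaling by RLE or by library totals alone, a fit of the compared strains only, an unfiltered table, a filter at 5 CPM in 3 samples, a threshold of 0.01 on the adjusted p, and omission of each C7-143 and C0 library. Carotenoid genes, the nuclease gene and mitochondrially encoded genes were not analysed here.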

Additional observations from a re-analysis of the deposited data

How the results depend on the processing

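Genes higher and lower in C7-143 than in C0, at each threshold and against each of C0, C3-06 and C5-63, kept within 1.5 times their counts under every alternative run except library totals alone. With library totals alone, 2684 genes were higher and 2177 lower than in C0, 1553 and 990 by at least 2-fold, 44 genes were at least 2-fold higher and 74 at least 2-fold lower than in each of the 3 strains, and the median log2 fold change of all genes was 0.12, against -0.02 with TMM. The median of the label genes was 0 without the filter on low counts, against 0.27, and no other list median changed sign. Leaving out each library in turn gave 2416 to 2444 genes higher and 2453 to 2489 lower than in C0, 1367 to 1410 higher and 1135 to 1190 lower by at least 2-fold, and 72 to 110 higher and 30 to 59 lower than in each of the 3 strains. The fit with a replicate block gave 2485 higher and 2519 lower genes, 1389 and 1150 by at least 2-fold, and 86 and 43 apart from each strain, although the numbers do not pair the libraries. Of the 4999 genes called, 4991 were also called by DESeq2, 4984 by limma-voom and 4986 under the block, in the same direction. With library totals alone 4658 were also called and 1 had the opposite sign, and at an adjusted p below 0.01 the number was 4687, and without 1 library 4848 to 4888. For the 207 genes named with a fitted value, 3093 values under an alternative kept their side of the threshold, 8 lost the call and 4 gained it, with 0 reversed; the genes are given beside their results. Small counts within lists moved too: without C0 replicate 1 the permeases higher were 2 and the folding genes lower 2, and without C0 replicate 2 or C7-143 replicate 3 the proteasome genes at least 2-fold higher were 5. The causes were not tested. Depth limits what can be said of genes near 0 reads, and 5814 of 5980 genes passed the filter on low counts.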

Other observations

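Genes of Ty retrotransposons, the mobile elements of the yeast genome that encode Gag and Pol proteins, were looked at after their values were seen. The table holds 90 of them, and 48 were tested. In C7-143, 37 were higher than in C0, 28 of them by at least 2-fold, and 6 were lower, 3 of them by at least 2-fold, against 42.7% of all genes higher and 43.3% lower. Their median log2 fold change was 1.18. Together they took 0.282% ± 0.0023 of reads in C7-143 and 0.112% ± 0.00872 in C0 (SD, n = 3 each), with 0.281% to 0.285% in the C7-143 libraries and 0.102% to 0.118% in the C0 libraries, so the strains did not overlap. C5-63 stood at 0.177% and C3-06 at 0.164%. Of the 86 genes at least 2-fold higher in C7-143 than in each of C0, C3-06 and C5-63, 9 are Ty genes. Among all 5814 genes tested, 48 are Ty genes. Copies are near-identical and the authors' handling of reads that match several copies is not given in the sources used here, so which copy changed cannot be read from these values.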
